A study of Mus musculus with 10 samples.

Results

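The 10 genes described here encode enzymes of glycolysis and 2 regulators of its flux. They are the hexokinases Hk1 and Hk2, the phosphofructokinases Pfkl and Pfkp, the bifunctional kinase and phosphatase Pfkfb3, the aldolase Aldoc, the phosphoglycerate kinase Pgk1, the pyruvate kinase Pkm, the lactate dehydrogenase Ldha and the pyruvate dehydrogenase kinase Pdk1. They were taken by name, as every probe other than the array controls that carried one of these gene names. This gave 31 of the 56605 probes on the array, for 10 of its 25160 named genes, and all 10 genes could be tested in both tissue and organoids.

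Glycolysis turns glucose into pyruvate in the cytosol: hexokinases trap glucose in the cell as its phosphate, phosphofructokinase makes the first step that commits sugar to the pathway, and later enzymes recover ATP and make pyruvate or lactate. Pfkfb3 makes the fructose bisphosphate that activates phosphofructokinase, and Pdk1 holds back the use of pyruvate by mitochondria. In the colon, mature colonocytes burn mainly butyrate, whereas dividing crypt cells draw more on glucose, and p53 is known as a brake on glycolysis in many cell types.

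The promoters of the 2 genes that passed the test in organoids, Pgk1 and Pfkfb3, are printed with one promoter of Ldha, which did not pass it and whose promoter holds the most matches of all member promoters. They run from 250 bases before to 50 bases after the start of the gene in the RefSeq annotation of mouse assembly GRCm38.p6, read along the strand of the gene. Capitals mark every ACGTG or, for the other strand, CACGT, with overlapping matches joined. These letters are the core of the element that hypoxia-inducible factors bind. The longer CACGTG, which holds both, is the E-box that MYC proteins bind.
Pgk1 promoter, chrX:106186850-106187149, plus strand: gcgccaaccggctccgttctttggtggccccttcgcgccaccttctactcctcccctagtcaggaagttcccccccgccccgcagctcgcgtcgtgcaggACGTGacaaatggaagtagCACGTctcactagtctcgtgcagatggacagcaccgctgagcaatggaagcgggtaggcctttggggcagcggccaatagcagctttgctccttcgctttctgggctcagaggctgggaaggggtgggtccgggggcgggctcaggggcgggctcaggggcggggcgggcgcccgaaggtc
Pfkfb3 promoter, chr2:11502041-11502340, minus strand: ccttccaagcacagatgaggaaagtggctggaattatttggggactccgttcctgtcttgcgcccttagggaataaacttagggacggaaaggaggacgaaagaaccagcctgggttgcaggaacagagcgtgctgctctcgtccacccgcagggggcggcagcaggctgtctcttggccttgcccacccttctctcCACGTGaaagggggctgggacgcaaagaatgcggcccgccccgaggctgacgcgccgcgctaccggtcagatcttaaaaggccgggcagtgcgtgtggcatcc
Pfkfb3 second promoter, chr2:11553880-11554179, minus strand: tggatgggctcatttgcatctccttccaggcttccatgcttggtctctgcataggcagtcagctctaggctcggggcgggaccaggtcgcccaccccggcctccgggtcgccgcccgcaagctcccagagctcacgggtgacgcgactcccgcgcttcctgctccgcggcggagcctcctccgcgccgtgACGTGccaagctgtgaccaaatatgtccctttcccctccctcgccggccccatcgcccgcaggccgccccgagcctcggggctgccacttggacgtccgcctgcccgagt
Ldha promoter, chr7:46845554-46845853, plus strand: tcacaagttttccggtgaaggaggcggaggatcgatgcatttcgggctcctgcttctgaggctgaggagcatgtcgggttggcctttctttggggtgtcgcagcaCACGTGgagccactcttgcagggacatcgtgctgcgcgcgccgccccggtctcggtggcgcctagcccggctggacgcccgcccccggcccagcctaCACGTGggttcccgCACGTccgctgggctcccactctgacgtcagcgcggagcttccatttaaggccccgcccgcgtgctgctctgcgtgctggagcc
The Pgk1 promoter held 2 such stretches, at -150 to -146 and at -131 to -127 from the start. The 2 Pfkfb3 promoters held 1 each, a CACGTG at -53 to -48 and an ACGTG at -60 to -56. The Ldha promoter held 3, of which 2 were CACGTG. All 10 genes were matched, with 16 promoters. Of these, 8 promoters, from 7 genes, held ACGTG on either strand, against 19.6% of the 32851 promoters in the table. CACGTG stood in 2 of the 16, one of Pfkfb3 and one of Ldha, against 7.15% of all. A match is a description of the letters and not of binding.

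The study followed the role of p53 in the end of regeneration after colitis, in mouse colon and in colon organoids, which are epithelial cultures grown from crypts. Tissue came from male mice that had all received 2% dextran sodium sulfate, an agent that injures the lining of the colon, over 5 to 7 days, and tissue was taken 2 months later. The knockout (KO) mice were Axin2CreERT2 mice crossed with Trp53 fl/fl and given tamoxifen, and they were compared with p53 wild-type (WT) mice, 2 against 2, whose Cre status and tamoxifen the labels do not give. Ages are not given either. Axin2CreERT2 acts in Axin2-expressing cells, so whole KO tissue also holds cells that keep Trp53. The tissue mice formed 2 fixed pairs of 1 KO and 1 WT mouse, and 4 two-colour Agilent arrays measured each pair with the dyes both ways round.

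Organoids formed 3 groups of 2 samples, described as independent biological replicates. WT and KO organoids grew in full medium, with 0.328 nM surrogate Wnt, 3 µM CHIR-99021, 25% medium conditioned with R-spondin 1, EGF at 50 ng/ml and noggin at 100 ng/ml. KO organoids came from VillinCreERT2xTrp53fl/fl cultures, in which Cre acts in the intestinal epithelium, given 800 nM 4OH-tamoxifen for 2 days and selected with Nutlin-3A over several passages. The third group, KOWI, was Trp53 KO organoids that grew without Wnt, in medium lacking surrogate Wnt and CHIR-99021. The Wnt-free medium, the adaptation to it and any selection of cells on the way cannot be told apart. The 6 organoid arrays formed a loop in which each sample was on 2 arrays. Every value below is a log2 ratio of the first-named over the second-named group, unless it is called a log2 level.

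Between 44.6% and 59.1% of probes stood well above background per channel. The scanner software marked 13.7% to 16.3% of spots as outliers on the 4 arrays with KOWI RNA, against 0.808% to 4.41% on the other 6. These spots were left out, which removed 909 of 14061 genes from the tissue tests and 3407 of 14747 from the organoid tests. The Trp53 probe was well above background in 4 of 4 WT organoid channels and in 0 of 4 KO and 0 of 4 KOWI channels. Its fitted ratios of -0.83 in KO over WT and -0.79 in KOWI over WT, with limma adjusted p of 0.587 and 0.0785, are thus set against signals near background. In tissue its ratio was -0.46 and 0.04 in the 2 pairs (adjusted p = 0.614), and whether the probe lies in the deleted exons was not checked. All 10 colon epithelium markers stood above background in tissue, and 9 could be tested in organoids. The colonocyte markers, genes of mature absorptive cells, were negative in KOWI over WT organoids for 8 of 8, with a median of -2.56. Of these, 6 passed the test as lower, against 231 of all 11340 genes. In KO over WT organoids 8 of 8 were negative too, with a median of -0.75 and 0 past the test. The log2 of their summed level was 16.4 and 17.3 in KOWI, 18.1 and 18.0 in KO and 18.6 and 18.4 in WT. Proliferation markers were positive for 6 of 6 tested in KOWI over WT, with a median of 0.32, none past the test and replicate medians of -0.15 and 0.81. In KOWI over KO 2 of 6 were positive, with a median of -0.09. Their summed log2 level was 17.8 and 17.5 in KOWI, 16.9 in both KO samples, and 16.9 and 16.4 in WT. Such a level averages each sample's own arrays and weighs bright genes most. For KOWI against KO it does not follow the ratios, so it is not read as a difference between these groups. The fibroblast markers could not be tested in organoids for any of 6 genes. In such bulk RNA, a shift in the share of a cell type and a shift in RNA per cell cannot be told apart, and the part of these marker shifts in the ratios below was not tested.

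The 10 genes had medians near 0 and mixed signs in all 4 comparisons. The median was -0.02 in tissue KO over WT, 0.01 in organoid KO over WT, -0.03 in KOWI over WT and -0.08 in KOWI over KO, with 4, 6, 4 and 4 of the 10 genes positive. In KOWI over WT organoids, 2 of the 10 genes, Pgk1 and Pfkfb3, rose, with an adjusted p under 0.05 after limma's moderated test and Benjamini-Hochberg adjustment over all 11340 genes tested. Over all genes, 5.39% were called by this rule and 3.35% were called as higher. At an unadjusted p under 0.05 the same 2 members passed, against 23.1% of all genes, so by that rule the share of members was near the background. The median over all genes was 0.02. The other 8 genes lay between -0.37 and 0.27, with adjusted p from 0.271 to 0.976. Their 95% intervals reached from -0.79 to 0.91, so with 2 samples a group, changes within these intervals are not excluded.

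In KOWI over KO organoids 0 of the 10 genes passed the test, against 0.432% of all genes, and 2, again Pgk1 and Pfkfb3, had an unadjusted p under 0.05, against 14% of all genes. In KO over WT organoids the counts were 0 members, with 0% of all genes called by limma, and 1 member, Pfkfb3, at an unadjusted p under 0.05, against 5.35% of all genes. In tissue, 0 members passed the adjusted test, with 0% of all 13152 genes called by limma, and 0 had an unadjusted p under 0.05, against 14.7% of all genes. The 3 organoid comparisons share samples, so their values are given side by side and not as independent evidence.

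**Figure D1:**
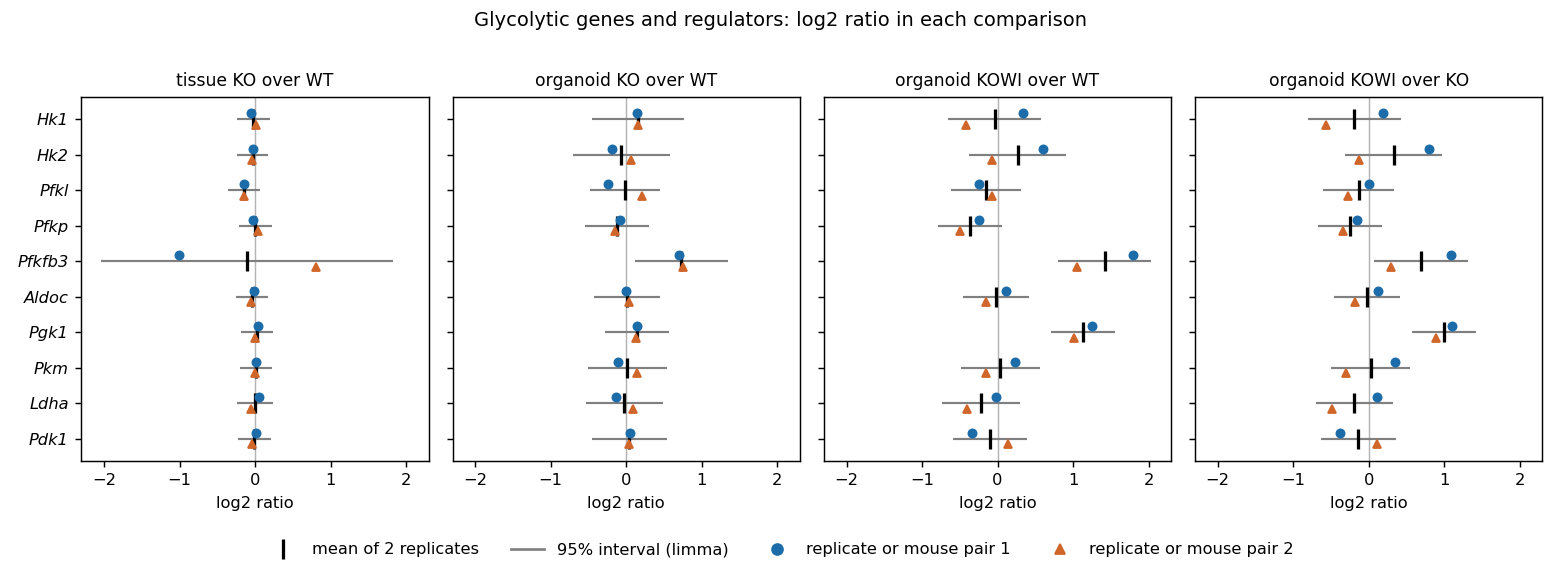
Log2 ratio of each of the 10 genes in the 4 comparisons, with 1 panel per comparison and the log2 ratio on the horizontal axis. Black bars are the means of 2 replicates or mouse pairs, grey lines the 95% limma intervals, and points the 2 replicates or pairs. In KOWI over WT the Pgk1 and Pfkfb3 intervals lie above 0, and in tissue the 2 Pfkfb3 pairs lie on opposite sides of 0.

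Hk1 and Hk2 make glucose phosphate, the entry step of the pathway, with Hk2 the form that many growing cells induce. In tissue, Hk1 was at -0.06 and 0.01 in the 2 pairs and Hk2 at -0.03 and -0.04. Between KOWI and WT organoids, Hk1 was at 0.34 in replicate 1 and -0.41 in replicate 2, a mean of -0.04 (SE 0.24). Neither the sign nor the size of the Hk1 ratio repeated between replicates. The value of Hk2 rests on 5 of the 6 organoid arrays, and it was 0.60 and -0.07, a mean of 0.27 (SE 0.26, adjusted p = 0.626, 95% interval -0.38 to 0.91). Its KOWI over KO values, 0.79 and -0.14, were spread as widely. In KO over WT organoids Hk1 was at 0.15 and 0.16, a mean of 0.15 (SE 0.24, adjusted p = 0.9999), and Hk2 at -0.19 and 0.07. The 2 arrays that carried both groups read 0.43 and -0.19 for Hk1. Its other fitted probes gave -0.24 and 0.18, and -0.11 and -0.17, so its probes did not give 1 direction.

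Pfkl and Pfkp are the liver-type and platelet-type subunits of phosphofructokinase. Pfkl gave -0.15 in both tissue pairs (SE 0.06, unadjusted p = 0.107, adjusted p = 0.416). A second Pfkl probe gave -0.34 in each pair, with an adjusted p of 0.296 over all probes. Both Pfkl probes thus lay below 0 in both pairs without passing the test. In KOWI over WT organoids Pfkl was at -0.24 and -0.07, and in KO over WT at -0.25 and 0.20. Pfkp was near 0 in tissue, at -0.03 and 0.04, with another probe than in organoids. A dimmer fitted Pfkp probe gave -0.31 and -0.25 there, and the gene's median over its probes was -0.14. Its KOWI over WT values were -0.24 and -0.50, a mean of -0.37 (SE 0.17, unadjusted p = 0.076, adjusted p = 0.271), the lowest of the 10 genes. All 3 fitted Pfkp probes were negative there in both replicates. The other 2 gave means of -0.89, from -0.50 and -1.29, and -0.80, from -0.20 and -1.40, with adjusted p of 0.108 and 0.238 over all probes. Against KO, Pfkp was at -0.16 and -0.34 (adjusted p = 0.649), and KO over WT gave -0.08 and -0.16.

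Pfkfb3 was the member with the largest ratio in KOWI over WT organoids. Its 1 probe above background lies at chr2:11393579-11393638, minus strand, in mouse build mm9 as the array's annotation gives it, with no exon position looked up. Fitted from the loop and centred on the 6 samples, its log2 values were -0.93 and -0.50 in WT, -0.23 and 0.26 in KO, and 0.86 and 0.55 in KOWI. By these values WT was lowest, KO between and KOWI highest. The share of all genes with such an order was not counted, so the order is a description only. KOWI over WT was 1.79 in replicate 1 and 1.05 in replicate 2, and the 2 arrays that carried both groups read 1.33 and 1.21 with KOWI in opposite dyes. The mean of 1.42 (SE 0.25, adjusted p = 0.0408) is 2.67-fold, with a 95% interval of 1.74 to 4.10-fold. KO over WT was 0.70 and 0.76, a mean of 0.73 (SE 0.25, unadjusted p = 0.0285), which did not pass after adjustment (adjusted p = 0.839). Its 2 arrays read 1.33 and 0.42. KOWI over KO was 1.09 and 0.29, a mean of 0.69 (SE 0.25, unadjusted p = 0.0345, adjusted p = 0.303). Both steps of the order thus had the same sign in both replicates, and only the difference of its ends passed the test.

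In tissue, the 2 mouse pairs gave opposite directions for Pfkfb3. Its log2 levels were 11.35 and 11.83 in the KO mice and 12.36 and 11.03 in the WT mice, so the WT mice held both the highest and the lowest value. Pair 1 read -1.25 and -0.77 on its 2 arrays and pair 2 read 0.60 and 1.00. The dye swap thus repeated the direction within each pair, and the pair means of -1.01 and 0.80 gave a mean of -0.10 (SE 0.56, adjusted p = 0.952). The KO ratio of Pfkfb3 in organoids minus that in tissue was 0.83 (SE 0.63, adjusted p = 0.619), which did not pass the test of the difference.

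**Figure D2:**
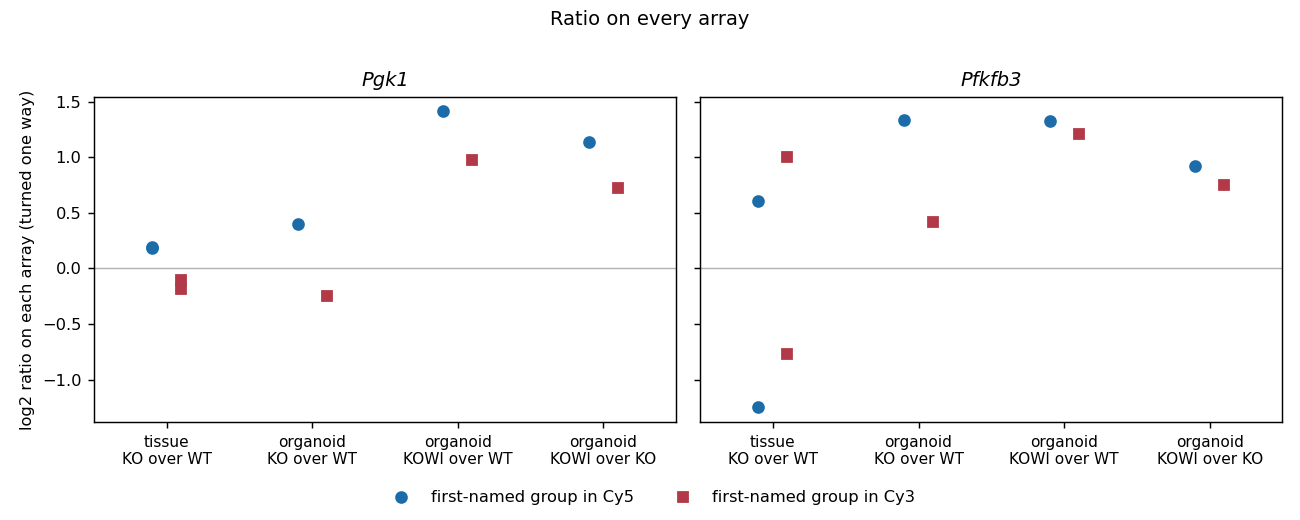
Log2 ratio of Pgk1 and Pfkfb3 on every array, turned to the first-named group over the second, with comparisons on the horizontal axis. Blue circles are arrays with the first-named group in Cy5 and red squares arrays with it in Cy3. All 4 KOWI over WT values lie between 0.98 and 1.41, whereas the tissue values of Pfkfb3 run from -1.25 to 1.00.

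Aldoc, an aldolase that splits the fructose bisphosphate made by phosphofructokinase, stayed within 0.18 of 0 in every replicate by its brightest probe. The values were -0.02 and -0.05 in tissue, -0.01 and 0.03 in KO over WT, and 0.12 and -0.15 in KOWI over WT (adjusted p = 0.976). In tissue the other 2 fitted probes, both dimmer, gave -0.20, from -0.21 and -0.18, and -0.16, from -0.17 and -0.15. A second of its 3 organoid probes gave 0.37 in KOWI over WT, from 0.74 and -0.01, so its probes did not give 1 direction.

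Pgk1 makes the first ATP that glycolysis pays back. It had 1 probe, at chrX:103398915-103398974 on the plus strand in mm9, a bright one with a mean log2 intensity of 15.8 in organoids. The fitted log2 values, centred on the 6 samples, were -0.59 and -0.26 in WT, -0.44 and -0.13 in KO, and 0.66 and 0.76 in KOWI. WT and KO overlapped, and both KOWI samples lay above the other 4, a pattern whose share over all genes was not counted. KOWI over WT was 1.25 and 1.01 in the 2 replicates, and the 2 arrays read 1.41 and 0.98. The mean of 1.13 (SE 0.17, adjusted p = 0.0296) is 2.19-fold, with a 95% interval of 1.64 to 2.93-fold. Against KO, the values were 1.10 and 0.88, a mean of 0.99 (SE 0.17), 1.99-fold, with an adjusted p of 0.0789. Loss of Trp53 in full medium left a ratio of 0.14 (SE 0.17, 95% interval -0.28 to 0.56, adjusted p = 1), from 0.15 and 0.13, although its 2 arrays read 0.40 and -0.25. In tissue the pairs gave 0.04 and 0.00 (95% interval -0.19 to 0.24).

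The calls of Pgk1 and Pfkfb3 in KOWI over WT depended on the processing, while their direction did not. The ratio was positive in 14 of 14 alternatives for both genes, from 0.99 to 1.21 for Pgk1 and from 1.11 to 1.88 for Pfkfb3. It was called in 5 of them for Pgk1 and in 4 for Pfkfb3. Without the filter, with the median over probes, with arrays as independent and without the replicate block, the ratio was the main one by construction. Apart from leaving out KO replicate 1, every call came from these, and arrays as independent counts shared samples more than once. With the outlier spots kept, with the scanner software's processed signals, with median centring or with the authors' table, 0 members were called, and the adjusted p of Pgk1 was 0.0688 to 0.166 and that of Pfkfb3 0.102 to 0.178. Both stayed called without KO replicate 1, and neither did without any other single sample: for Pgk1 the adjusted p was then 0.12 without KO replicate 2, 0.118 and 0.141 without KOWI replicate 1 and 2, and 0.427 and 0.164 without WT replicate 1 and 2.

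**Figure D3:**
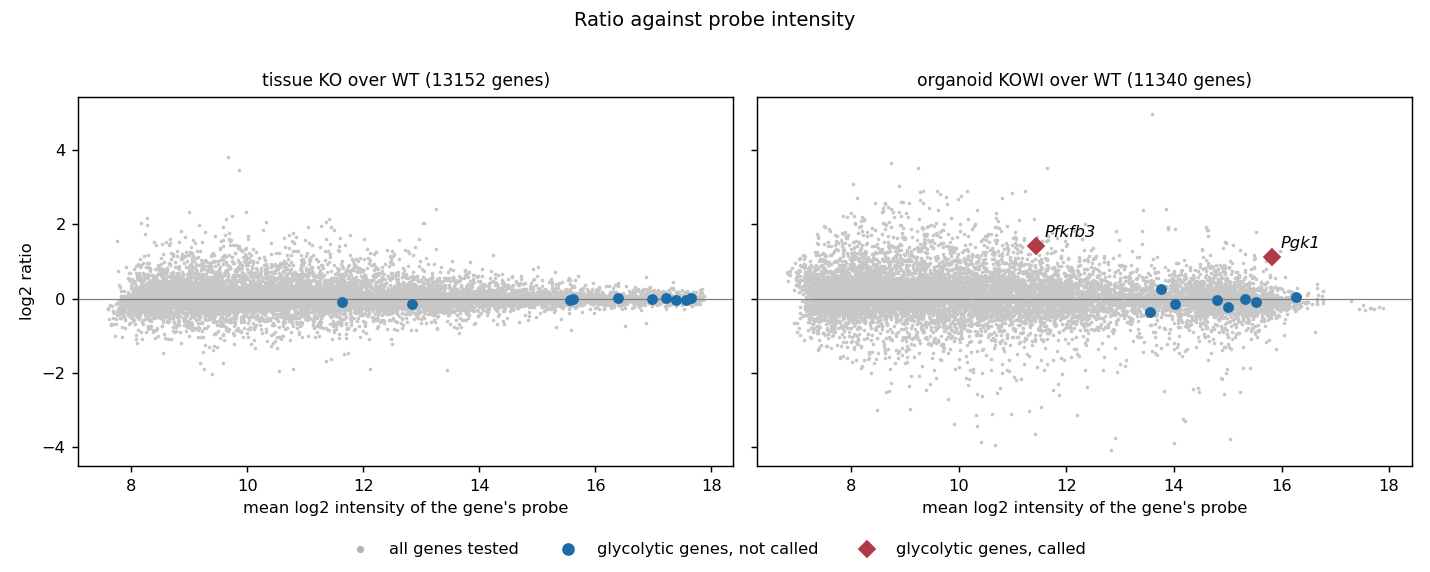
Log2 ratio against the mean log2 intensity of the probe, for tissue KO over WT and for organoid KOWI over WT. Grey points are all genes tested, blue circles glycolytic genes that did not pass the test and red diamonds those that did. In tissue 8 of the 10 genes sit at bright probes, where ratios spread less than at dim ones. In organoids Pgk1 lies at 1.13, and 51 of the 2382 genes at log2 intensities of 14 to 16 were called.

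Pkm and Ldha make pyruvate and lactate. In tissue Pkm was at 0.01 and 0.00 and Ldha at 0.05 and -0.05. KOWI over WT organoids gave Pkm 0.23 and -0.16, a mean of 0.04 (adjusted p = 0.951), and Ldha -0.03 and -0.40, a mean of -0.22 (SE 0.21, adjusted p = 0.616). Neither gene kept its sign between replicates in both KOWI comparisons, since KOWI over KO gave 0.34 and -0.30 for Pkm and 0.11 and -0.49 for Ldha. KO over WT gave -0.11 and 0.14 for Pkm and -0.14 and 0.09 for Ldha. These values are of the brightest probes. The other fitted Pkm probes gave 0.47 and 0.24, and 0.47 and 0.06, in KO over WT, without passing the test over all probes. Ldha, whose printed promoter holds 3 motif stretches, was called in 0 of the 4 comparisons.

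Pdk1 phosphorylates and so inactivates pyruvate dehydrogenase. Its organoid values rest on 5 of the 6 arrays and were -0.33 and 0.13 in KOWI over WT (mean -0.10, adjusted p = 0.832), -0.38 and 0.10 in KOWI over KO, and 0.05 and 0.03 in KO over WT. Its tissue values were 0.01 and -0.04. By this brightest organoid probe, no direction repeated between the replicates of the KOWI comparisons. Over its 4 fitted probes KOWI over WT ran from -0.10 to 0.13, with 3 positive, and a dimmer probe gave 0.04 and 0.06. In KOWI over KO 3 of the 4 were negative, and another dimmer probe gave -0.27 and -0.20.

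**Figure D4:**
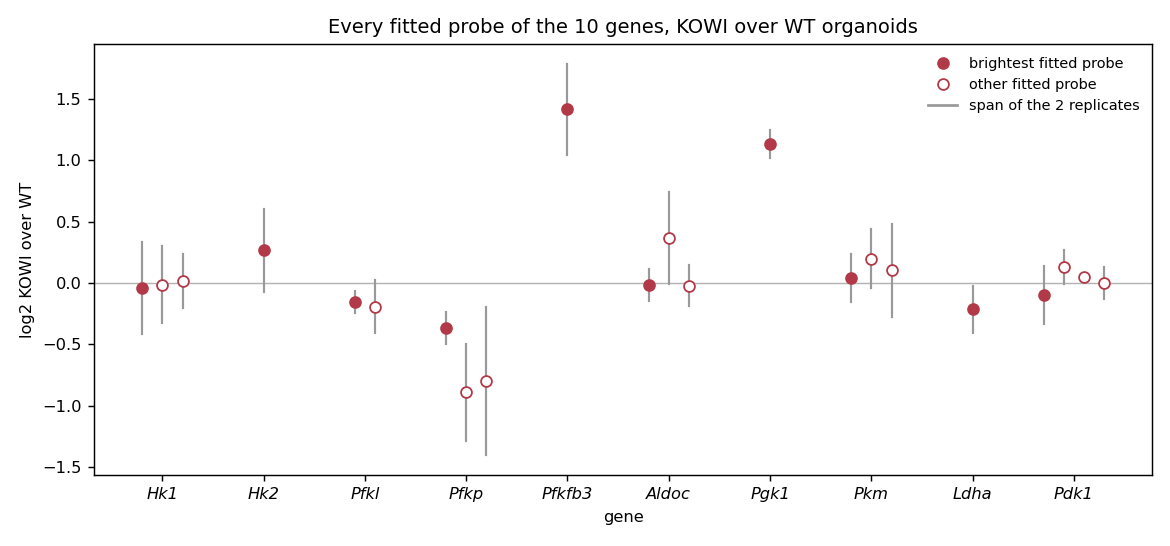
Log2 KOWI over WT of every fitted probe of the 10 genes in organoids, with genes on the horizontal axis. Filled points are the brightest fitted probe of a gene, open points its other fitted probes, and grey lines span the 2 replicates. The 3 Pfkp probes lie below 0, and Pgk1 and Pfkfb3 rest on 1 fitted probe each.

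The tissue ratios of the members were small where probes were bright. The mean log2 intensity of their brightest fitted tissue probe ran from 11.6 for Pfkfb3 and 12.8 for Pfkl to 17.7 for Pgk1. Over all genes, the median absolute ratio was 0.031 at log2 intensities of 16 and over and 0.205 under 10. The fitted member probes at 14 and over ran from -0.04 to 0.02, and all probes at 14 and over from -0.85 to 1.18. No member spot was saturated, in 0 of 980 member spot channels. Markers of other cells moved in the same libraries: the skeletal muscle markers were positive in tissue KO over WT for 11 of 11 tested, with a median of 0.39, and the colon epithelium markers for 0 of 10, with a median of -0.14, none of them past the test. The part of these shifts in the members' tissue ratios was not tested.

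The KO ratio differed between organoids and tissue for 0 of the 10 members, with a smallest adjusted p of 0.581 for Hk1. For Pfkp, Pdk1 and Aldoc the test set 1 probe in tissue against another in organoids, so probe differences enter it. The Aldoc probe used in organoids read -0.20 in tissue, against -0.04 for the probe used there. The limma test of this difference called 0 of 10087 genes, and 1238 genes had an unadjusted p under 0.05.

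Of 72 other genes of sugar metabolism and its control, 67 could be tested in tissue and 53 in organoids. In KOWI over WT organoids 1 rose and 2 fell, 3 of 53, a share near the 5.39% of all genes called. Mycn, a MYC family transcription factor, rose by 2.04 (SE 0.29, adjusted p = 0.0279), from 2.00 and 2.07, and its probe stood above background in 4 of 4 KOWI channels, 3 of 4 KO and 2 of 4 WT channels. It entered the test only through KOWI, the group where it was high, so its size rests on a WT signal partly not above background. Pck1, which starts gluconeogenesis from oxaloacetate, was at -1.27 and -1.43, a mean of -1.35 (SE 0.24, adjusted p = 0.0408). Slc2a5, the fructose carrier of the gut epithelium, was at -1.14 and -1.10 (adjusted p = 0.0292). It entered the test only through WT, with 4 of 4 channels above background, 2 of 4 in KO and 0 of 4 in KOWI, so these ratios are set against a KOWI signal near background. Both genes that fell are known from absorptive cells, whose markers fell in the same samples, and the part of that shift was not tested.

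The other lists held no call in that comparison. The 13 tested other glycolytic enzymes had a median of 0.16, with replicate medians of 0.38 and -0.15. The 11 tested other regulators had a median of -0.18 and the 6 pentose phosphate genes one of -0.11. The 11 tested hypoxia genes had a median of 0.24, with 9 of 11 positive and replicate medians of 0.46 and 0.12. Their highest value was 1.17. Bnip3, a mitochondrial protein that hypoxia induces, was at 0.65 (adjusted p = 0.0936) and is named for its likeness to Pfkfb3, given below. In KO over WT 9 of the 11 were positive too, with a median of 0.21. In KOWI over KO 6 of 11 were, with a median of 0.05. The median over all genes tested was 0.02 in KOWI over WT, 0.06 in KO over WT and -0.03 in KOWI over KO. In KOWI over WT, medians of the lists with a call were -0.89 for the 4 tested transporters, -0.30 for the 4 gluconeogenesis genes and 0.30 for the 4 MYC family genes.

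**Figure D5:**
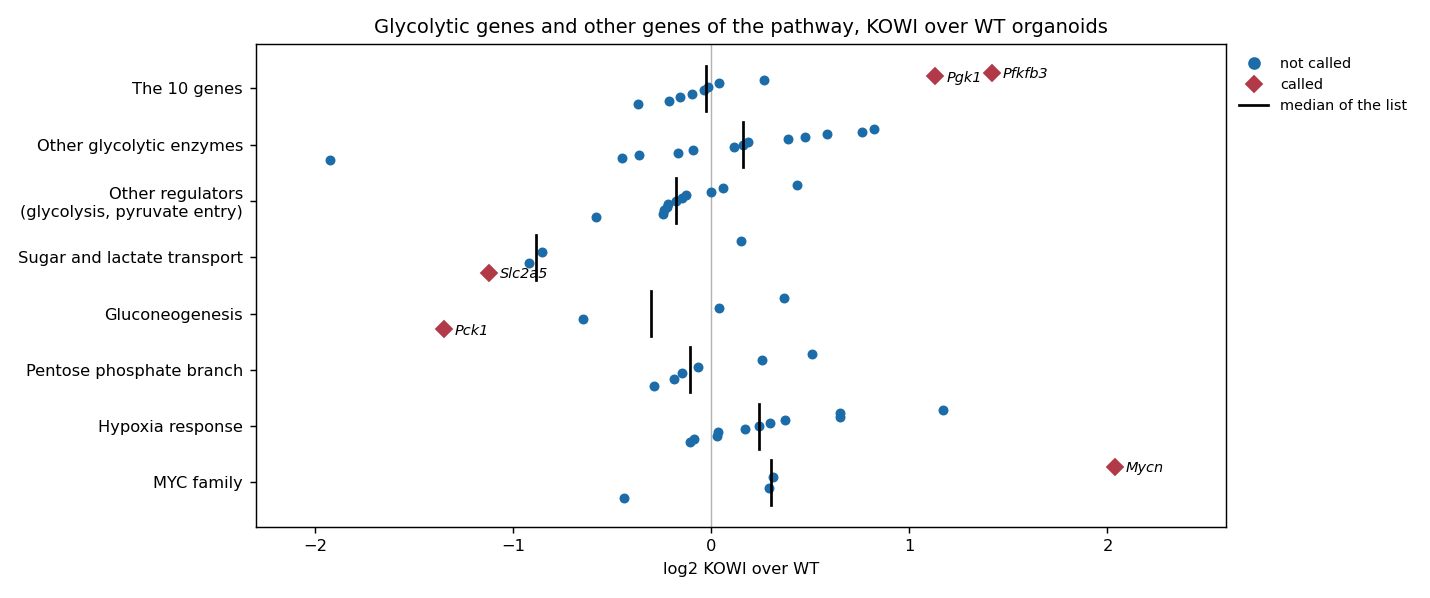
Log2 KOWI over WT in organoids for the 10 genes and for the other lists of the pathway, 1 point per tested gene, with the lists on the vertical axis. Red diamonds are genes past the test, blue circles the others, and black bars the medians of the lists. Of the genes past the test, Pgk1, Pfkfb3 and Mycn lie above 1, and Slc2a5 and Pck1 below -1.

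In the other 3 comparisons 0 of the pathway genes passed limma's test, and 10 of 53 in KOWI over KO, 2 of 53 in KO over WT and 9 of 67 in tissue had an unadjusted p under 0.05. Over all genes these shares were 14%, 5.35% and 14.7%. The smallest p in KOWI over KO belonged to Mycn at 1.68 (adjusted p = 0.0794), Pck1 at -1.30 (adjusted p = 0.0872) and Slc5a1, a glucose carrier, at -0.70 (adjusted p = 0.228). In KO over WT organoids Slc2a5 was at -0.63 (adjusted p = 0.652) and Adpgk at 0.53 (adjusted p = 0.879). In tissue the lactate carrier Slc16a7 was at 0.65, the lactate dehydrogenase subunit gene Ldhb at 0.59 and the glucose carrier Slc2a3 at 0.54, each with an adjusted p of 0.256 and with 2 pairs of the same sign. Slc16a7 stood above background in 4 of 4 KO and 3 of 4 WT channels. It entered the test only through KO, the group where it was high.

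The 6 organoid samples also gave the genes whose pattern was most like that of Pfkfb3. These were 4931428F04Rik, Dagla, Nkpd1, Dmtf1 and Bnip3, with Pearson correlations of 0.982, 0.980, 0.980, 0.980 and 0.974 over the 6 fitted values, and 110 of 11339 genes exceeded 0.9. Pgk1 and Pfkfb3 correlated at 0.896. These points share arrays, since each sample value was fitted from the same loop, and the values are a description with no test.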

How the data were processed

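RNA of mouse colon tissue and colon organoids was hybridised to 10 two-colour Agilent arrays on 2 slides, 1 for tissue and 1 for organoids. The deposited scanner files hold each spot's mean and background intensity per dye and its log10 ratio of Cy5 over Cy3, made by the authors with Agilent Feature Extraction 12.2.0.7 per the file headers. The authors' deposited value table holds log2 ratios, and limma, with no version, stands in the submitters' processing notes. The table was used as an alternative.

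Outlier spots and 3671 control spots were left out of the tests. Intensities were background-corrected (normexp, offset 50) and normalised within arrays by loess, in limma 3.58.1 under R 4.3.3. A probe was kept if 1 or more groups had it well above background in all their channels, and a gene was read from its brightest kept probe. Tissue arrays were averaged to 2 pair ratios and tested against 0. Organoid arrays gave 6 sample values by least squares, tested with replicate number as a term. Replicate 1 was always Cy3 and replicate 2 always Cy5, so that term also holds the dye. The p-values were adjusted by Benjamini-Hochberg over all genes, with calls at an adjusted p under 0.05.

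Whether same-numbered samples deviate together was checked over genes: r was 0.198 for WT and KO, 0.17 for WT and KOWI and -0.0095 for KO and KOWI organoids, and 0.746 for the tissue pairs, which shared arrays. Not every organoid value was over 0.1, so the organoid number was not read as a shared source. It was kept as a term for the dye, and the value given for an organoid replicate is the difference of same-numbered samples. Whether organoid replicates came from separate mice is not given in the labels, so p-values measure the spread between these samples. One tissue label gives another replicate number than the sample's title, which was used. The number of arrays limits the precision, and the scripts were tested on simulated data.

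The members and gene lists were chosen with earlier results of these data known. The genes named were all 10 members, Trp53, other pathway genes past the test (or the 3 with the smallest p where none passed) and the 5 genes most like Pfkfb3. In the lists, 1 gene that the rule named is not reported here. Alternatives were other background corrections and normalisations, the authors' table, outliers kept, no filter, the median over probes, arrays as independent, no replicate block, and each sample left out.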

Additional observations from a re-analysis of the deposited data

How the results depend on the processing

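The members' calls in KOWI over WT organoids depended most on the processing. From 2 members and 611 genes called, the counts became 0 members and 135 genes with the scanner software's processed signals, 0 and 227 with median centring without loess, 0 and 4 with the authors' table, 0 and 59 with outliers kept, and 1 (Pgk1) and 262 without the filter on dim probes. With arrays as independent, 3 members, with Pfkp added, and 4097 genes were called. Leaving out 1 sample gave 0 to 2 members and 0 to 802 genes, and members' medians of -0.19 to 0.30. In KOWI over KO, 49 genes became 0 with processed signals, the authors' table or outliers kept, 4 without the filter and 2650 with arrays as independent, when 2 members were called. Leave-outs gave 0 to 214 genes. In KO over WT organoids, arrays as independent gave 817 genes and 1 member (Pfkfb3), and leave-outs 0 to 14 genes and medians of -0.075 to 0.21. In tissue 895 genes were called with median centring and 601 with arrays as independent, and 0 members under any of 12 alternatives. The tissue median of members, -0.018, was -0.030 with processed signals, -0.028 with the authors' table, -0.056 with median centring and -0.058 with the median over probes. With 1 mouse left out it was -0.0034, -0.040, 0.0065 and -0.027, and it ran from -0.024 to -0.016 with 1 pair left out. Median centring moved the median of all genes to -0.05 in tissue and to 0.08 in KOWI over WT. The causes were not tested. Without the replicate block, Pgk1 and Pfkfb3 kept their calls (adjusted p 0.0398 and 0.0392), the organoid genes called were 438 in KOWI over WT, 40 in KOWI over KO and 0 in KO over WT, and 0 tissue genes were called. The block changed no member's call. No member that was called reversed its sign under any alternative.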

Other observations

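In tissue KO over WT, the members' dimmer probes leaned one way. Of 10 fitted member probes with a mean log2 intensity under 14, 9 were negative, with a median of -0.16 and a range of -0.34 to 0.03. Over all 16386 probes under 14, 53.1% were negative and the median was -0.01. At 14 and over, 6 of 10 member probes were negative, with a median of -0.01. This split was chosen after seeing the data, the probes share genes, and no test was made. The 3 lowest values were those of a Pfkl, a Pfkp and a Pkm probe, at -0.34, -0.28 and -0.27.

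Hk2 and the brightest organoid probe of Pdk1 ran opposite to each other over the 6 organoid samples, with a Pearson correlation of -0.858. This was the lowest value of all pairs of members. Both rest on 5 of the 6 arrays, and the value is a description only. Other Pdk1 probes, fitted on all 6 arrays, did not all run opposite to Hk2. In KOWI over KO they gave 0.21 and -0.29, 0.19 and -0.11, and -0.27 and -0.20, against 0.79 and -0.14 for Hk2.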
